A study of Mus musculus with 6 samples.

Results

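The genes described here encode the matrix metalloproteases (MMPs), the ADAM and ADAMTS proteases, the ADAMTS-like proteins and the tissue inhibitors of metalloproteases (TIMPs), and they were taken from the count table by symbol alone. The symbol rule found 55 of the 14943 genes in the table: 16 MMPs, 4 TIMPs, 12 ADAMs, 18 ADAMTS genes and 5 ADAMTS-like genes. The study profiled the peritoneum, the lining of the abdominal cavity, in male wild-type mice of the C57BL/6J strain, 8 weeks old. EPS stands for encapsulating peritoneal sclerosis, in which fibrous tissue binds the bowel, and 3 libraries model it: per the labels, a daily injection into the abdomen held dialysis solution (PDS, 4.25%, at 100 mL/kg) together with SHS (0.3 mL, not spelled out in the labels), and lipopolysaccharide, a bacterial endotoxin, was given weekly at 4 mg/kg. Saline at equal volume was given to the animals behind the 3 control libraries, and all tissue was taken in week 3. EPS animals received all agents together, so what each agent does cannot be told apart here. The labels do not say that each library is a separate animal, so the p-values measure the spread between these libraries, which may be partly technical.

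MMPs are zinc-dependent enzymes that cut collagens, elastin and other matrix proteins, and TIMPs are small secreted proteins that plug their active sites. ADAMs are membrane-anchored relatives, several of which shed cytokines, growth factors and adhesion molecules from the cell surface, and ADAMTS enzymes are secreted relatives that trim procollagens and cleave proteoglycans such as versican. ADAMTS-like proteins share the non-catalytic modules of the ADAMTS family, lack the protease domain, and bind microfibrils of the matrix. In the peritoneum, fibroblasts, mesothelial cells, fat cells and incoming white blood cells are all known sources of some of these genes.

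Libraries held 15419232 to 17684229 counts. No strand-marking step is named in the protocol, and 16 of the 55 genes have an exon that overlaps an exon of another annotated gene, 10 of them one in the table, so their counts may include reads of that gene. The libraries parted by group on the first principal component, and EPS 1 stood apart from EPS 2 and EPS 3 on the second. Controls 1 and 2 differed less from each other (mean chi-square per gene 4.41) than from control 3 (15.9 and 16.4), which is still above counting noise, and with those controls averaged 16 of the 55 genes were higher and 14 lower. Markers of the exocrine pancreas summed to 141700 CPM (CPM being counts scaled by TMM-adjusted library size) in EPS 1, against 160.5 and 487 CPM in EPS 2 and EPS 3. In controls 1 to 3 they summed to 3655, 3441 and 324 CPM. Markers of the labelled tissue were detected in all 6 libraries: 8 mesothelial genes summed to 147 to 226 CPM in controls and to 285, 258 and 57.3 CPM in EPS 1 to 3, and none of the 8 was called. In tissue RNA of this kind, fewer cells of a type and less RNA per cell cannot be told apart.

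Of the 55 genes, 54 passed the filter on low counts. Among these, 18 were higher and 17 lower in EPS at an adjusted p under 0.05 (edgeR's quasi-likelihood test, Benjamini-Hochberg over all genes), and 19 were not called. Over all 13980 genes tested, 59.6% were called, 29.2% higher and 30.4% lower, so the 64.8% called among these families is close to the background share and is not in itself a result about them. The groups did not overlap in 38 of the 54, or 70.4%, against 68.5% of all genes. The median log2 fold change was 0.10, against -0.02 over all genes tested, and the median size of the change was 0.97 against 0.69. By family, 9 of 15 tested MMPs were higher and 4 lower, 1 of 4 TIMPs was higher and 3 lower, and of 5 ADAMTS-like genes none was higher and 3 were lower by edgeR's test. A difference between families was not tested, and these counts include Mmp12, Mmp3 and Timp2, whose calls were lost in 8 or 9 of 15 alternatives. With library totals in place of TMM scaling, 23 of the 54 were higher and 9 lower, as the share of higher calls over all genes moved from 49.1% to 72.2%. The median gene moves by 0.42 (log2) under that scaling; values below use TMM. Without EPS 1, 20 were higher and 15 lower. For 5 genes all 3 EPS libraries but fewer controls were over the filter's cutoff: 0 controls for Mmp8, Mmp27 and Adamts13, 1 for Mmp25 and 2 for Adamts17. For Adamts19 it was all 3 controls and 2 EPS libraries. The direction of Mmp8, Mmp27 and Adamts13 was thus in part set by the filter, and that of the others may have been.

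**Figure D1:**
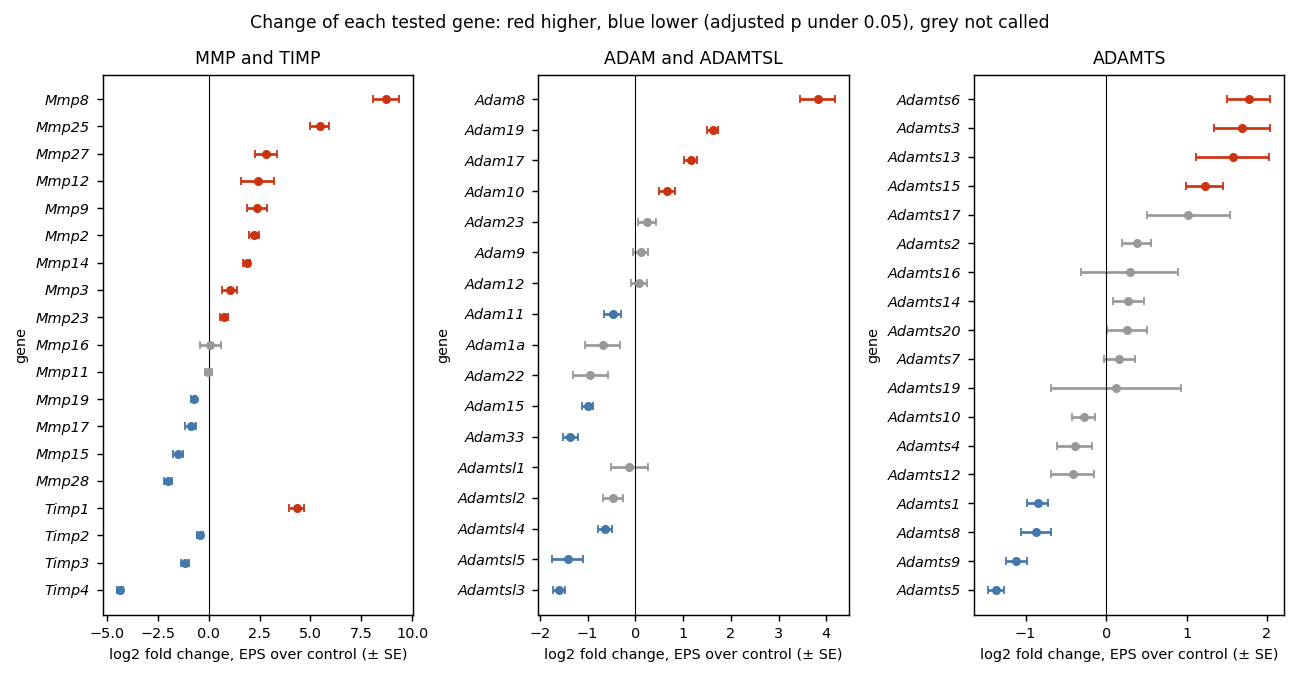
Log2 fold change (EPS over control, x axis, ± SE) of the 54 tested genes, by family; red is higher, blue lower and grey not called at an adjusted p under 0.05. Mmp8 lies furthest right at 8.72 and Timp4 furthest left at -4.36, and the x axes differ between panels.

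Several of the genes lie side by side. Mmp12, Mmp3, Mmp8, Mmp27 and Mmp7 occupy 355 kb of chromosome 9 (7344381 to 7699585 in mm10, all on the plus strand). They are the counted part of a cluster of collagenase, stromelysin, elastase and matrilysin genes, which also holds genes outside the count table, such as Mmp1b. The 4 tested genes in it were called higher in EPS, where 29.2% of all genes were, and Mmp7 was untested. Mmp8 and Mmp27 passed the filter only through EPS libraries, and Mmp12 and Mmp3 lost their calls in 9 and 8 of 15 alternatives. Of the 7 promoter windows of the cluster (RefSeq, GRCm38.p6, 250 bases before to 50 after a start, printed 5′ to 3′), the 5 that hold one of the motifs below are shown, to set the letters beside the genes; the window of Mmp27 and the second of Mmp7 hold none and are not printed. The capitals mark TGANTCA, the recognition letters of the stress-responsive factor AP-1, or GAGGAAGT, those of the myeloid factor PU.1, each searched on both strands. These motifs, and the consensus of NF-kB, were picked with the changes of the genes known.
Mmp3, chr9:7445572-7445871, plus strand, AP-1 letters from 46 bases before the start: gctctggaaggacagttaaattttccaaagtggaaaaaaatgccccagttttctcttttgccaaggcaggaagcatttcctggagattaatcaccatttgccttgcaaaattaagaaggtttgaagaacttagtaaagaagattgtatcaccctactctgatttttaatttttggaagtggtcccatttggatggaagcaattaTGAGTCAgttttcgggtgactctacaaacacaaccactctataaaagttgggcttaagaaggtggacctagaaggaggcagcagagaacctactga
Mmp12, second start, chr9:7347124-7347423, plus strand, AP-1 letters from 44 bases before: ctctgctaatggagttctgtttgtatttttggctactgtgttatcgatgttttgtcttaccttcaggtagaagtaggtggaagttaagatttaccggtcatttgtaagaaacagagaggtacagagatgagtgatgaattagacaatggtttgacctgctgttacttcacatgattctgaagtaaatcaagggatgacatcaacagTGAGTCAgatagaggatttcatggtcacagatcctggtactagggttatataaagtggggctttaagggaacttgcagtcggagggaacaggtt
Mmp12, first start, chr9:7344147-7344446, plus strand, PU.1 letters from 88 bases before: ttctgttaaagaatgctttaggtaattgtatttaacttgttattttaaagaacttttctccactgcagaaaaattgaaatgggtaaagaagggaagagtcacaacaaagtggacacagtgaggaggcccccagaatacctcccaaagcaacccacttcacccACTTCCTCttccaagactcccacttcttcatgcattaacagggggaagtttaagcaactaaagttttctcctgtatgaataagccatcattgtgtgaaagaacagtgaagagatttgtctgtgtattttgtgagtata
Mmp8, chr9:7558179-7558478, plus strand, PU.1 letters from 221 bases before: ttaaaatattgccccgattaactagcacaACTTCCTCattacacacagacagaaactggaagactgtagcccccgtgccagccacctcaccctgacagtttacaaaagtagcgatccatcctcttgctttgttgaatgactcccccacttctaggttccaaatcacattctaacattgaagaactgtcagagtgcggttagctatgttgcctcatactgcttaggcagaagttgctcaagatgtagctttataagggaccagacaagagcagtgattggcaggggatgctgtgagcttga
Mmp7, chr9:7691840-7692139, plus strand, AP-1 letters from 63 and PU.1 letters from 109 bases before: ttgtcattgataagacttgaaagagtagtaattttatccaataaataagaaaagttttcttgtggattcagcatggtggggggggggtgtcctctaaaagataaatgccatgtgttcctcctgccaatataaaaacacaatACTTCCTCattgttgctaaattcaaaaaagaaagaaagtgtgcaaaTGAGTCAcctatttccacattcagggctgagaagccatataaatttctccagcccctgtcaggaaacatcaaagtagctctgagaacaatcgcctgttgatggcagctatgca

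In the cluster, 3 of 7 windows held the AP-1 letters and 3 of 7 the PU.1 letters, and none held the NF-kB consensus. Over all 32851 promoter windows the shares were 7.81%, 3.20% and 4.51%. Windows were found for 36 of the 55 genes, 41 windows in all, of which 4 held the AP-1 letters, 3 those of PU.1 and 3 the NF-kB consensus. A match of letters is a description of the window and says nothing of binding.

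Of the collagenase genes only Mmp8 was in the count table, and it rose, as did the gelatinases. Mmp8, the neutrophil collagenase (chromosome 9, 7558456 to 7568485), stood at 0.214, 0 and 0.0661 CPM in controls 1 to 3, 4 counts in all, and at 28.5, 31.5 and 63.7 CPM in EPS 1 to 3. The groups were far apart, and the log2 fold change was 8.72 ± 0.65 (SE; adjusted p = 2.83e-05), or 9.996 without control 1. Mmp9, gelatinase B, also stored in neutrophil granules (chromosome 2, 164940780 to 164955850), was at 28.7, 27.0 and 11.4 CPM in controls and 107, 65.5 and 176 CPM in EPS, a rise of 5.199-fold (log2 2.38 ± 0.50, adjusted p = 0.00783). Control 3 was the lowest library and EPS 3 the highest. Mmp2, gelatinase A, made mainly by stromal cells (chromosome 8, 92827291 to 92853420), was at 52.8, 48.4 and 50.7 CPM in controls and 280.2, 292 and 144 CPM in EPS. It rose 4.71-fold (log2 2.24 ± 0.26, adjusted p = 2.53e-04), and unlike Mmp9 it was lowest in EPS 3 among the EPS libraries.

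The membrane-bound MMPs went both ways. Mmp14 encodes MT1-MMP, the cell-surface collagenase that activates pro-MMP2 together with TIMP2 (chromosome 14, 54431612 to 54445364). It was at 71.0, 79.8 and 77.3 CPM in controls and 317, 311 and 203 CPM in EPS, a rise of 3.65-fold (log2 1.87 ± 0.18, adjusted p = 5.81e-05). Mmp25, a leukocyte membrane-anchored MMP, rose from 0.214, 0.661 and 0.926 CPM to 20.7, 21.9 and 38.1 CPM (log2 5.45 ± 0.45, adjusted p = 3.96e-05). Mmp15, a relative of Mmp14 (chromosome 8, 95352268 to 95375080), fell from 89.2, 91.4 and 82.3 CPM to 42.1, 29.1 and 21.0 CPM, 2.86-fold lower (adjusted p = 9.38e-04). Mmp17 was at 31.1, 31.2 and 31.3 CPM in controls and 11.0, 25.0 and 14.4 CPM in EPS (log2 -0.89 ± 0.28, adjusted p = 0.0264). Its call was lost with any 1 control left out (adjusted p = 0.0680 to 0.0686), without EPS 3 (0.0829), with controls 1 and 2 averaged (0.0693) and with library totals (0.321), over a range of 5.31e-04 to 0.321. Mmp16 was near 1 CPM in both groups and was not called (adjusted p = 0.899).

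Mmp28 (epilysin), an MMP of epithelia and resting tissue, was the most abundant MMP per exon length in controls. It fell from 118, 122 and 102 CPM to 18.9, 34.0 and 32.5 CPM, 3.99-fold lower (log2 -1.998 ± 0.22, adjusted p = 1.67e-04). Mmp19 fell from 74.3, 65.2 and 75.7 CPM to 48.3, 42.1 and 38.9 CPM (log2 -0.74 ± 0.12, adjusted p = 8.43e-04), a call lost with library totals (log2 -0.33, adjusted p = 0.120; lowest over the alternatives 4.00e-06). No EPS library of either gene reached a control library. Exons of Mmp28 overlap those of 1700020L24Rik by 466 bases, and exons of Mmp19 those of Tmem198b by 789 bases. Mmp27 was scarce but rose from 0.214, 0.198 and 0.331 CPM to 1.11, 2.63 and 1.58 CPM (log2 2.81 ± 0.53, adjusted p = 0.00227). Mmp23 was 1.68-fold higher (adjusted p = 0.0128), a call lost without control 1 (0.0569) or control 3 (0.0515), over a range of 5.70e-04 to 0.0569.

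The stromelysins and the macrophage elastase were less steady. Mmp3, stromelysin 1, was at 9.498, 10.2 and 8.00 CPM in controls and 8.80, 23.5 and 24.8 CPM in EPS (log2 1.05 ± 0.37, adjusted p = 0.0410), so that EPS 1 lay within the control range. Its call was lost with any 1 control left out and without EPS 2 or EPS 3 (adjusted p = 0.0876 to 0.127), and over all alternatives its adjusted p ran from 9.66e-05 to 0.127. Mmp12, the elastase of macrophages, was at 1.79, 1.92 and 2.31 CPM in controls and 2.36, 23.4 and 6.14 CPM in EPS (log2 2.41 ± 0.81, adjusted p = 0.0384). EPS 2 carries most of that value: without it the log2 fold change was 1.09 (adjusted p = 0.0727). The call was also lost with any 1 control left out (0.103 to 0.116) and without EPS 3 (0.0562), over a range of 4.31e-04 to 0.148. Mmp11, stromelysin 3, was nearly level, with a control mean of 10.5 ± 0.769 CPM and an EPS mean of 10.4 ± 0.858 CPM (SD, n = 3; adjusted p = 0.949).

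Mmp7, matrilysin, was a matter of 1 library. It had no count in any control, 289 counts (20.03 CPM) in EPS 1, and 6 and 5 counts in EPS 2 and EPS 3. That is at least 79.2-fold higher against a floor of 3 counts over the controls, and at least 3.91-fold higher in EPS 2 and EPS 3 alone. With no filter on low counts it was not called (adjusted p = 0.167). EPS 1 is also the library in which the pancreas markers reached 141700 CPM; the part of that tissue in the Mmp7 value was not tested.

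**Figure D2:**
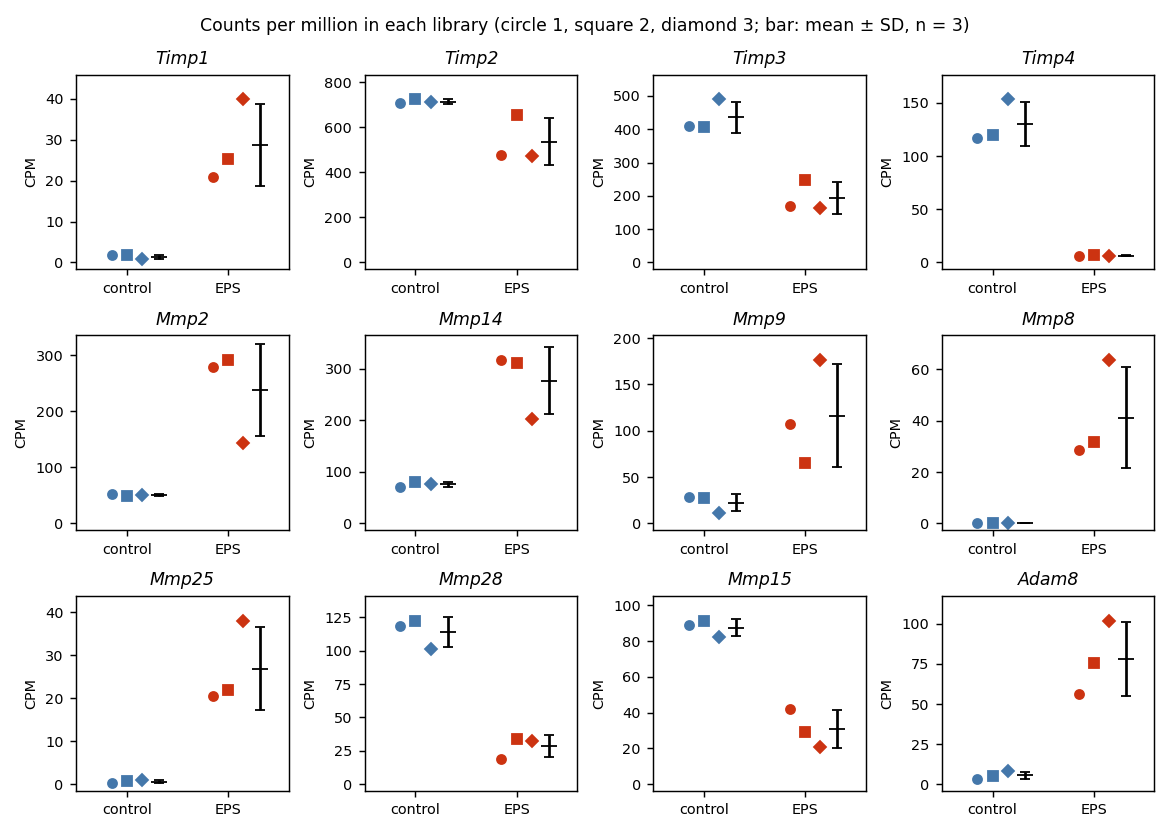
CPM (y axis, linear) in each of the 3 control (blue) and 3 EPS (red) libraries for 12 genes chosen after their values were seen; circles, squares and diamonds are replicates 1, 2 and 3, and black bars are mean ± SD. Mmp8, Mmp25 and Timp1 were near 0 in controls, and Timp4 was at 5.68 to 6.95 CPM in EPS.

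The 4 TIMPs moved apart. Timp1, the inducible inhibitor (chromosome X, 20870166 to 20874735), was at 1.71, 1.72 and 0.860 CPM in controls and 20.8, 25.3 and 39.9 CPM in EPS, a rise of 20.01-fold (log2 4.32 ± 0.36, adjusted p = 3.38e-05). Timp4, the inhibitor typical of fat, heart and muscle (chromosome 6, 115241892 to 115252205), went the other way, from 117, 119.7 and 154 CPM to 5.68, 6.95 and 6.34 CPM. It was 20.5-fold lower (log2 -4.36 ± 0.16, adjusted p = 1.67e-06), and no EPS library came near a control library. Timp4 lies within the body of Syn2, a synapsin gene that also fell, from 16.3 ± 1.31 to 3.04 ± 0.432 CPM (SD, n = 3). Exons of Timp4 and Syn2 overlap by 90 bases, and those of Timp3 and Syn3 by 1733 bases. Without strand, some reads of either gene of such a pair could be counted for the other. Timp3, which binds to the matrix and also inhibits ADAM17 and several ADAMTS enzymes (chromosome 10, 86300372 to 86349506), fell from 409, 407 and 491 CPM to 169.5, 249 and 164 CPM, 2.25-fold lower (adjusted p = 8.02e-04). Timp2 was at 707, 725 and 710.2 CPM in controls and 478, 656 and 471 CPM in EPS (log2 -0.42 ± 0.16, adjusted p = 0.0473). The groups did not overlap, but the call was lost in 9 of 15 alternatives, among them any 1 control left out (adjusted p = 0.103 to 0.123), without EPS 1 (0.121) or EPS 3 (0.105), and library totals, where the log2 fold change was 0.02 (0.943, with a lowest value of 0.00261 over the alternatives).

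Levels can be compared between genes only per length, here as CPM per kb of exon. Timp2 was the most abundant of the 55 genes in both groups, at 183 ± 2.49 CPM per kb in controls and 137 ± 26.9 in EPS (SD, n = 3). The order below it was rebuilt. In controls it was followed by Timp3 (53.5 ± 5.88), Mmp28 (29.4 ± 2.86), Adam15 (26.1 ± 2.104), Adam9 (25.1 ± 2.15), Timp4 (22.1 ± 3.46) and Mmp19 (20.3 ± 1.62), of which the neighbours from Mmp28 to Mmp19 lay within or near each other's SD. In EPS it was followed by Mmp2 (70.8 ± 24.4), Mmp14 (46.5 ± 10.8), Mmp9 (32.9 ± 15.8), Timp1 (32.3 ± 11.3) and Adam9 (27.2 ± 5.78), whose neighbours did not differ beyond their SD. Among the 55 genes, Mmp2 went from place 10 to 2, Mmp14 from 13 to 3, Timp1 from 36 to 5 and Timp4 from 6 to 43.

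Summed per length, the 16 MMPs came to 125, 126 and 115 CPM per kb in controls and 248, 243 and 218 in EPS, while the 4 TIMPs came to 253, 258 and 269.6 in controls and 168, 228 and 187 in EPS. The MMP sum was thus 0.494, 0.489 and 0.427 times the TIMP sum in controls and 1.48, 1.06 and 1.17 times in EPS. Without Mmp7, Mmp8, Mmp9 and Mmp25 these ratios were 0.414 to 0.462 in controls and 0.720 to 1.09 in EPS. The ratio describes transcript levels of the genes in the table and says nothing of active enzyme. Mmp28 made up 22.8% to 25.0% of the MMP sum in controls and 1.97% to 3.84% in EPS. Mmp2 made up 11.4% to 13.1% in controls and 33.5%, 35.7% and 19.6% in EPS 1 to 3, and Mmp14 9.51% to 11.3% in controls and 15.6% to 21.5% in EPS. Timp1 went from 0.359% to 0.762% of the TIMP sum to 12.5% to 24.0%, and Timp4 from 7.82% to 9.66% to 0.516% to 0.575%.

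**Figure D3:**
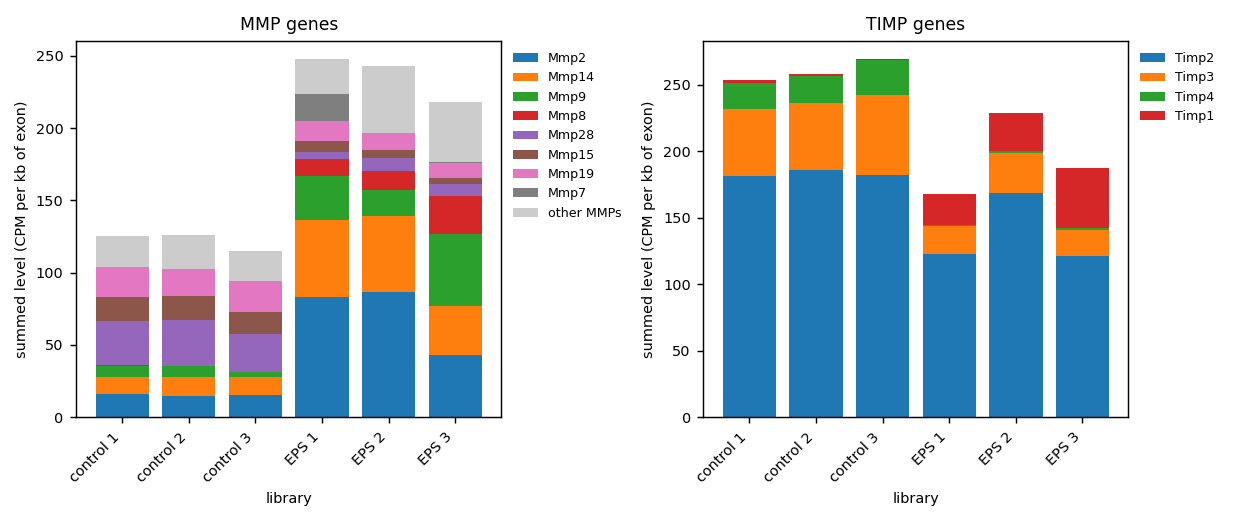
Summed level (CPM per kb of exon, y axis) of the MMP genes (left) and TIMP genes (right) in each of the 6 libraries, stacked by gene. The MMP bars are 115 to 126 in controls and 218 to 248 in EPS, and the TIMP bars 253 to 269.6 and 168 to 228.

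Among the ADAM sheddases, 4 of 8 rose and 2 fell, so 75% were called, against 59.6% of all genes. That difference was not tested. Adam8, a sheddase of myeloid cells (chromosome 7, 139978932 to 139992562), rose from 3.29, 5.22 and 8.00 CPM to 56.0, 75.5 and 102 CPM, 14.1-fold (log2 3.82 ± 0.36, adjusted p = 1.08e-04). Adam19, or meltrin beta (chromosome 11, 46055992 to 46147343), rose from 28.6, 28.1 and 26.6 CPM to 74.8, 90.6 and 91.2 CPM, 3.08-fold (adjusted p = 1.11e-05). Its libraries were tight within each group. Adam17, the TNF-alpha converting enzyme (chromosome 12, 21323509 to 21373632), rose from 46.7, 50.9 and 50 CPM to 131, 98.0 and 101 CPM, 2.24-fold (adjusted p = 1.50e-04). Adam10, the sheddase of Notch and of several adhesion molecules, rose from 73.8, 71.6 and 67.1 CPM to 139.6, 111 and 87.6 CPM (log2 0.67 ± 0.16, adjusted p = 0.00825). EPS 1 was the highest library for Adam17 and Adam10, and EPS 3 for Adam8 and Adam19.

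Adam15 and Adam33 fell. Adam15, an ADAM of endothelium and epithelium, went from 145, 168 and 167 CPM to 70.1, 84.7 and 85.6 CPM (log2 -0.9993 ± 0.12, adjusted p = 1.75e-04), and Adam33, an ADAM of mesenchymal cells, from 25.2, 26.0 and 32.3 CPM to 9.49, 11.7 and 11.3 CPM (log2 -1.36 ± 0.16, adjusted p = 1.70e-04). Adam9 and Adam12, the latter an ADAM tied to fibroblast activation, were at 103 ± 8.84 and 86.9 ± 11.3 CPM in controls and 112 ± 23.8 and 92.0 ± 18.8 CPM in EPS. Neither was called (adjusted p = 0.550 and 0.695), though both passed as higher with library totals (0.0264 and 0.0461). Of the ADAMs that lack a working protease, Adam11 was at 18.8, 17.3 and 20.6 CPM in controls and 10.5, 14.9 and 15.3 CPM in EPS (log2 -0.47 ± 0.18, adjusted p = 0.0493). That call was lost in 12 of 15 alternatives, with adjusted p from 0.0356 to 0.946, and among these were the loss of any 1 control (0.0741 to 0.144), of EPS 1 (0.176) and of EPS 2 (0.0542). Adam22 (adjusted p = 0.0571; 0.00185 without EPS 2), Adam23 (0.297; 0.0163 without EPS 1) and Adam1a (0.135) were not called.

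Of the 7 ADAMTS genes whose enzymes cleave proteoglycans, 4 fell and 1 rose, where 59.6% of all genes were called and 30.4% were lower. Adamts5, an aggrecanase (chromosome 16, 85856173 to 85901828), fell from 56.3, 58.1 and 62.6 CPM to 23.0, 23.3 and 22.0 CPM (log2 -1.37 ± 0.10, adjusted p = 1.24e-05). The 3 EPS libraries were almost equal. Its neighbour Adamts1, another aggrecanase (chromosome 16, 85793827 to 85803113), fell from 74.3, 73.9 and 63.2 CPM to 34.9, 36.4 and 45.9 CPM (log2 -0.85 ± 0.13, adjusted p = 8.34e-04). Adamts9, a broadly expressed versicanase, fell from 59.6, 58.2 and 62.8 CPM to 32.2, 27.8 and 23.4 CPM (log2 -1.12 ± 0.13, adjusted p = 1.73e-04). Adamts8 fell from 11.0, 11.4 and 11.2 CPM to 4.99, 6.86 and 6.49 CPM (log2 -0.87 ± 0.19, adjusted p = 0.00428). With library totals the calls of Adamts1 (adjusted p = 0.121) and Adamts8 (0.211) were lost, from lowest values of 2.06e-05 and 0.00136 over the alternatives.

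Adamts15 was the proteoglycan-cleaving gene that rose, and it lies 20.1 kb from Adamts8 on chromosome 9 (30899155 to 30922452). It went from 27.7, 28.3 and 38.4 CPM to 96.9, 68.0 and 55.6 CPM (log2 1.22 ± 0.23, adjusted p = 0.00240). These neighbours therefore moved in opposite directions, while Adamts1 and Adamts5, 53.1 kb apart, both fell. Adamts4, another aggrecanase, and Adamts20 were not called (adjusted p = 0.157 and 0.383).

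Of the procollagen N-proteinases, which cut the amino-terminal propeptide from fibrillar procollagens, Adamts3 rose from 1.71, 1.85 and 1.39 CPM to 3.81, 7.61 and 4.51 CPM (log2 1.69 ± 0.35, adjusted p = 0.00358). Adamts2, by far the most abundant of the 3, was at 174, 163 and 166 CPM in controls and 189, 287 and 179 CPM in EPS (log2 0.38 ± 0.18, adjusted p = 0.100). It was not called here but passed as higher without EPS 1 (0.0244) or EPS 3 (0.0386), with DESeq2 (0.0392) and with library totals (0.0145). Adamts14 was not called (0.253). Their substrates' genes Col1a1 and Col1a2, fixed among the fibroblast markers, were 4.84-fold and 3.77-fold higher.

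Among the other ADAMTS genes, 2 of 8 rose and none fell, so 25% were called, against 59.6% of all genes. Adamts6 went from 2.21, 2.78 and 1.92 CPM to 7.62, 9.49 and 6.54 CPM (log2 1.77 ± 0.27, adjusted p = 6.72e-04). Adamts13, the protease of von Willebrand factor, went from 0.571, 0.529 and 0.265 CPM to 1.18, 1.46 and 1.44 CPM (log2 1.57 ± 0.45, adjusted p = 0.0165), a call lost without control 2 (0.05) or control 3 (0.0627), with a lowest value of 0.00672 over the alternatives. The groups did not overlap for either gene, as for 68.5% of all genes. Adamts13 passed the filter only through the EPS libraries, so its direction was in part set by the filter. Adamts7, Adamts10, Adamts12, Adamts16, Adamts17 and Adamts19 were not called, with adjusted p from 0.119 to 0.904. Adamts17 passed without EPS 3 (0.0490).

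The ADAMTS-like genes were lower or not called. Adamtsl3 fell from 34.2, 31.7 and 32.3 CPM to 10.5, 10.6 and 11.4 CPM (log2 -1.59 ± 0.12, adjusted p = 1.86e-05), with both groups tight. Adamtsl5 fell from 28.4, 33.1 and 35.8 CPM to 8.04, 19.0 and 9.26 CPM (log2 -1.42 ± 0.32, adjusted p = 0.00652). Adamtsl4, which binds fibrillin microfibrils, fell from 33.0, 35.9 and 41.9 CPM to 21.4, 27.0 and 23.1 CPM (log2 -0.63 ± 0.14, adjusted p = 0.00594). With library totals neither Adamtsl5 (adjusted p = 0.0569) nor Adamtsl4 (0.489) was called, and their lowest values over the alternatives were 4.02e-05 and 0.00264. Adamtsl2 was not called (0.0813). Adamtsl1 spread widely within EPS, at 33.3, 58.6 and 17.8 CPM around a control mean of 40.0 ± 1.90 CPM (SD, n = 3; adjusted p = 0.800).

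The EPS libraries differed among themselves. Of the 55 genes, 12 were highest in EPS 1, 30 in EPS 2 and 13 in EPS 3. Mmp8, Mmp9, Mmp25, Adam8 and Timp1, picked after their values were seen, were among the 13 highest in EPS 3; the 13 also hold Adam15, Adam11, Adamts1 and Adamtsl3, which fell against controls. In EPS 3 the 10 neutrophil markers summed to 2160 CPM, against 616 and 882 CPM in EPS 1 and EPS 2. Ngp (786 CPM), Ltf (369) and S100a9 (310.5) gave most of that sum, and Csf3r was higher in EPS 1 (159 CPM) than in EPS 3 (149). All 10 neutrophil markers were higher in EPS. In controls they summed to 6.01 to 8.14 CPM. S100a8 was at 0 in control 1, Ngp at 0 in control 3 and Mpo at 0 in controls 2 and 3. Ngp, Ltf, Cxcr2, S100a8, Mpo, Camp and Retnlg had at most 7 counts in any control library. These genes passed the filter only through the EPS libraries, so their direction was in part set by the filter. All 9 macrophage and monocyte markers were also higher, from sums of 715 to 798 CPM to 3546 to 4333 CPM. So were all 6 T and NK cell markers, with sums of 4.49 to 5.93 CPM in controls and 252, 340.2 and 453 CPM in EPS 1 to 3, again highest in EPS 3. Of these, Cd3e and Gzmb likewise passed the filter only through the EPS libraries. All 6 B and plasma cell markers were higher too, with sums of 9.45 to 24.5 CPM in controls and 1223, 941 and 1273 CPM in EPS 1 to 3. Mmp2, Mmp14 and Adamtsl1, also picked after their values were seen, were lowest in EPS 3, as were genes such as Mmp15, Mmp19, Adam10, Adamts9 and Adamts15, while Timp2 was nearly equal in EPS 1 and EPS 3. In EPS 3 the fibroblast markers summed to 4495 CPM, against 5653 and 8026 CPM in EPS 1 and EPS 2 and 2580 to 2620 CPM in controls. Most of the EPS sums came from Col1a1 (1820, 3136 and 1745 CPM in EPS 1 to 3) and Col1a2 (1757, 2550 and 1427 CPM). Of the 10 fibroblast markers, 5 were higher, 1 (Pdgfrb) was lower, and Pdgfra, Dcn, Dpt and Postn were not called. The part of these cell types in the changes was not tested.

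**Figure D4:**
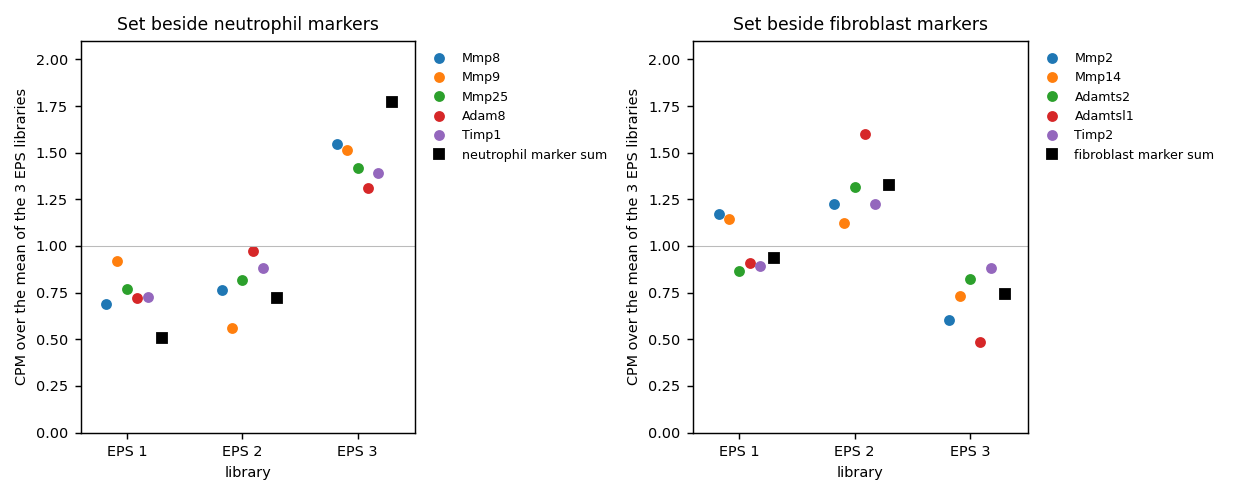
CPM of each gene in the 3 EPS libraries divided by its mean over them (y axis, linear), for 5 genes set beside the neutrophil marker sum (left, black squares) and 5 beside the fibroblast marker sum (right). On the left all 5 genes and the marker sum are highest in EPS 3. On the right the marker sum, most of it Col1a1 and Col1a2, is highest in EPS 2. The genes were chosen after their values were seen.

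The genes that fell did so beside markers of fat and blood vessels. All 8 fat cell markers were lower, with sums of 2198 to 3744 CPM in EPS against 23610 to 24230 CPM in controls and a median log2 fold change of -3.38. All 7 markers of blood endothelium were lower, from sums of 2256 to 2449 CPM to 971 to 1186 CPM (median -1.37). Of the 5 smooth muscle and pericyte markers, 3 were lower, with sums of 1228, 3223 and 1079 CPM in EPS 1 to 3 against 4407 to 4823 CPM. Timp4 fell by 4.36 on the log2 scale, more than the fat markers' median. Mmp28, Mmp15, Adam33, Adamtsl3, Adamtsl5 and Adamts5, picked after their values were seen, had log2 fold changes from -1.998 to -1.36. The other lower genes fell less, among them Timp3 (-1.17), Adamts9 (-1.12) and Mmp19 (-0.74). The part of these cell types in the falls was not tested.

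Genes that switch the proteases on were split, with 6 of 17 higher and 7 lower, not far from the 29.2% and 30.4% of all genes. Rhbdf2, or iRhom2, which carries ADAM17 to the surface of immune cells, rose from 28.6, 30.9 and 34.1 CPM to 70.8, 72.8 and 81.9 CPM (log2 1.27 ± 0.11, adjusted p = 3.41e-05). Its paralogue Rhbdf1, or iRhom1, named after its value was seen, fell by 1.07 ± 0.10 on the log2 scale (adjusted p = 4.67e-05). Tspan33, a tetraspanin partner of ADAM10, rose from 1.93 ± 0.349 to 17.5 ± 4.54 CPM, and Tspan17, another such partner, fell from 36.8 ± 1.05 to 8.21 ± 1.70 CPM (SD, n = 3). Pcsk6, a furin-like convertase, was 9.35-fold lower, falling from 168 ± 7.30 to 17.98 ± 4.47 CPM (SD, n = 3; adjusted p = 6.43e-06).

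Of 12 other inhibitor and clearance genes tested, 3 were higher and 2 lower, so 41.7% were called, against 59.6% of all genes. A2m, alpha-2-macroglobulin, which traps proteases, rose from 0.860 ± 0.175 to 5.71 ± 1.81 CPM (SD, n = 3; adjusted p = 3.68e-04), and Lcn2, whose protein binds MMP9, stood at 1545, 116 and 310.3 CPM in EPS 1 to 3 against 5.48 to 9.19 CPM (adjusted p = 0.0102). Papln, papilin, and Cst3, cystatin C, were 3.03-fold and 1.51-fold lower.

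Of 22 genes for proteins shed from the cell surface, 12 were higher and 4 lower, with a median log2 fold change of 0.71 against -0.02 over all genes, of which 59.6% were called and 29.2% were higher. Cd44, the receptor for hyaluronan, rose from 25.2 ± 1.74 to 167 ± 16.8 CPM (SD, n = 3; adjusted p = 2.13e-06). The Notch ligand gene Jag1 and the growth factor gene Kitl fell 2.65-fold and 2.78-fold. Of 14 genes for ADAMTS substrates and microfibril proteins, 3 were higher and 6 lower. Fbn2, fibrillin 2, and Emilin1 rose by 2.99 ± 0.39 and 1.22 ± 0.13 on the log2 scale, while Ncan, the proteoglycan neurocan, and Ltbp3, a binder of latent TGF-beta, fell by 3.88 ± 0.41 and 1.19 ± 0.13. Vcan, versican, the substrate of several ADAMTS enzymes above, named after its value was seen, rose from 15.3 ± 1.93 to 32.5 ± 6.23 CPM (SD, n = 3; adjusted p = 9.90e-04).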

How the data were processed

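RNA-seq of mouse peritoneum was analysed from the authors' deposited table of raw counts per gene, made on mm10 per the submitters' processing notes; not given in the sources used here are aligner, counter and annotation. The 6 columns matched 3 control and 3 EPS samples by name. Genes passing edgeR's filterByExpr were scaled by TMM and tested with edgeR 4.0.16's robust quasi-likelihood test (R 4.3.3, limma 3.58.1), with Benjamini-Hochberg adjustment over all genes and a threshold of 0.05. The SE is the log2 fold change divided by the square root of F. CPM uses TMM-scaled library sizes, and levels per kb use GENCODE vM21 exon lengths, found for all 55 genes. A gene with no control count was set against 3 counts over the group, which covers counting error only. On simulated data (14150 genes), 4.48% of 1.5-fold, 59.7% of 2-fold and 100% of 4-fold changes were recovered. There were 5 false calls among 13950 unchanged genes. The simulation gave every gene the same fixed spread in both groups and changed few genes, where 59.6% were called in the data. These rates therefore cannot be read as the power or error of this comparison. With library totals between 15419232 and 17684229, low genes are the least precise.

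The members and gene lists were chosen with earlier results of these data known. Named genes are all TIMPs, up to 6 called MMPs and up to 4 called genes of each other family per direction by lowest adjusted p, and the first 2 per direction of each pathway list; every other member is given by its call, with values for some. Alternatives were RLE, upper-quartile and library-total scaling, no filter, a mean of at least 50 counts, DESeq2 1.42.0, limma-voom, a replicate block, controls 1 and 2 averaged, and each library left out. Proteins were not used here. One gene that the rule names is not reported here.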

Additional observations from a re-analysis of the deposited data

How the results depend on the processing

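Of the 18 genes higher in EPS, 13 kept their call in every alternative that tested them, and of the 17 lower, 9 did; Mmp27, among the 13, was not tested at a mean of at least 50 counts. Leaving out each library in turn gave 14 to 20 higher and 14 to 17 lower members, and 3459 to 4393 higher and 3545 to 4155 lower genes overall. Library totals lowered the lower calls to 2182 of all genes and 9 members. Replicate numbers did not pair the libraries: same-numbered deviations correlated at 0.201, -0.0952 and 0.236. With a replicate block 15 members were higher and 17 lower (3947 and 4166 over all genes); with it the calls of Mmp9 (adjusted p = 0.0651), Mmp3 (0.0644), Mmp12 (0.0608) and Adam11 (0.0516) were lost and Adam22 (0.0232) was called.

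The log2 fold changes that turned sign belong to 8 genes that were not called and to Timp2, and the cause was not tested. With library totals the value was 0.419 for Mmp11, 0.0235 for Timp2, 0.163 for Adamts10, 0.0424 for Adamts4 and 0.312 for Adamtsl1. Mmp11 was also 0.0404 with RLE, 0.0418 with DESeq2, 0.0284 with upper quartiles and 0.00896 with controls 1 and 2 averaged. With limma-voom, Mmp16 was -0.0787, Adamts16 -0.123 and Adamts19 -0.48, and with the block Mmp16 was -0.0604 and Adamts19 -0.288. With each library left out in turn, Mmp16 ran from -0.576 to 0.411, Mmp11 from -0.0812 to 0.0912, Adam12 from -0.0247 to 0.233, Adamts16 from -0.507 to 0.705, Adamts19 from -1.21 to 0.637 and Adamtsl1 from -0.648 to 0.205.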

Other observations

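Adamdec1, a secreted ADAM-like protease of macrophages and dendritic cells that the symbol rule does not take, had 3, 0 and 0 counts in the controls and 139, 224 and 199 in EPS 1 to 3. With counts pooled in each group and scaled by summed library size, the ratio was 148-fold (counting interval 50.5 to 721). The adjusted p from edgeR was 5.77e-05. Adamdec1 passed the filter only through the EPS libraries, so its direction was in part set by the filter. It is on a list of other metzincins with 8 genes in the count data, of which 5 were tested. Among the 5, 3 were higher and none lower by edgeR's test. Tll2, Mep1a and Mep1b were scarce and untested. Over all genes tested, 29.2% were higher. Pappa and Pappa2 were the others called higher (adjusted p = 0.0400 and 0.0309), and for both the groups overlapped. Timp1 and Timp3 also lie within synapsin genes, and Syn1 and Syn3 were not called (adjusted p = 0.641 and 0.904).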
